A study of Mus musculus with 24 samples.

Results

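The stretch of mouse chromosome 11 described here runs from 94838823 to 96827631 (mm9), on the higher-coordinate side of a mutated Oct4 allele that served as the 4C viewpoint. Its members were chosen by position alone, as every HindIII fragment starting between 94838817 and 96826180. They number 457 of the 31865 HindIII fragments listed for chromosome 11, or 1.43%, and of 99415 fragments listed for the 3 chromosomes of the series. The fragment with the highest pooled count, 94813216 to 94826180, is taken as the viewpoint, and the interval begins 12.6 kb past its end and reaches 2 Mb. By the definition of the interval the HoxB gene cluster lies inside it, about 1.2 to 1.5 Mb from the viewpoint; this placement was not checked against an mm9 annotation, and the fragments at that distance are called the HoxB region on that basis.

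The study asked how Oct4 alleles contact chromatin in mouse embryonic stem cells at 2 time points, day 0 and day 3. The libraries analysed here came from 2 C57Bl/6 x 129/Sv lines at passage 7, OCF2ΔOCT4/SOX2 (the OctSox line) and OCF2ΔYY1 (the YY1 line), named for the transcription factors OCT4, SOX2 and YY1. Each line was sampled on both days with 2 biological replicates, giving 8 libraries of the mutated viewpoint in 4 groups, with 8 libraries of the wild-type Oct4 viewpoint on chromosome 17 used for comparison. The labels describe the chromosome 11 site as a region of insertion for which no cis comparison was made, name no treatment that separates the days, and do not say whether a line is a single clone. Each line carries its own mutated allele, so a difference between the lines cannot be told apart from a difference between the alleles. The labels do not say whether the replicates came from separate cultures, and the p-values measure only the spread between these libraries.

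In 4C, chromatin is crosslinked, cut and religated, and the DNA joined to a chosen viewpoint is sequenced, so that the reads on a fragment reflect how often it lay near the viewpoint. Contact usually falls steeply with distance along the chromosome, and departures from that fall, or an imbalance between the sides, mark places that meet the viewpoint more often than distance alone would give. Oct4 (gene Pou5f1) is one of the transcription factors that keep stem cells pluripotent. The HoxB genes encode homeodomain transcription factors that pattern the body axis; they are largely held silent by Polycomb complexes in embryonic stem cells and are switched on in order along the cluster during differentiation.

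HindIII cuts at AAGCTT, a palindrome that reads the same on both strands, and these sites set the ends of every fragment counted. To show such a cut point next to a HoxB gene, the promoters of Hoxb1 and Hoxb8 are given 5′ to 3′ on the plus strand from RefSeq (GRCm38.p6), with the HindIII site in capitals and the rest in lower case.
Hoxb1: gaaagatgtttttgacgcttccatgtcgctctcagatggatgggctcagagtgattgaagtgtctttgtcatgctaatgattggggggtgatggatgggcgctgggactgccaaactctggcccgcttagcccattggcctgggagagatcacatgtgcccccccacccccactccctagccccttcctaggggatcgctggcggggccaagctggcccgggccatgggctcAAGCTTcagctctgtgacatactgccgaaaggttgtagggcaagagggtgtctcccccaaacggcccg
Hoxb8: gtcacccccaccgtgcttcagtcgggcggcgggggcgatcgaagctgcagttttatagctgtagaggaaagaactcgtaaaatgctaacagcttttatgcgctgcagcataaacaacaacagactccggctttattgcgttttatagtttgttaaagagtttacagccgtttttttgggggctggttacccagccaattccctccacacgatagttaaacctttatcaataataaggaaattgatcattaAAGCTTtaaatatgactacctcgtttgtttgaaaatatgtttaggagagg
Of the 10 HoxB genes Hoxb1 to Hoxb9 and Hoxb13, the promoter table holds 3, and Hoxb1 and Hoxb8 each carry a site while Hoxb4 has none within its 300 bases. Over all 32851 RefSeq promoters of the same length in that table, 2449 (7.45%) carry AAGCTT. The site begins 18 bases before the Hoxb1 start and at the start of Hoxb8, so in that build a fragment boundary falls at or close to each of these starts. In RefSeq order, Atp5g1, which encodes a subunit of ATP synthase, Calcoco2, an autophagy receptor, and Ttll6, a tubulin glutamylase, precede Hoxb13; Hoxb9 to Hoxb1 follow, and then Skap1, an adaptor in T cell signalling, Snx11, a sorting nexin, and Cbx1, a heterochromatin protein. The counts are placed on mm9 and this annotation on another build, so no gene was assigned to a fragment, and values are given by distance.

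The libraries differed widely in depth, and this limits every comparison of days. Total counts ran from 2935 to 260509, and counts outside the viewpoint and its 1 neighbouring fragment on either side from 2820 to 252528. The day 3 libraries numbered 2 were the shallowest of both lines, with 3212 (OctSox) and 2820 (YY1) counts outside the viewpoint. The limit that a count of 0 allows, 3 counts, is 0.00119% in the deepest library and 0.106% in the shallowest. Counts were not corrected for PCR duplicates, so intervals here cover counting error only.

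The interval held a large part of all contacts outside the viewpoint. In the OctSox line its share of counts was 35.01% (95% Wilson interval 34.5 to 35.5) and 28.8% (27.7 to 29.9) on day 0, and 33.0% (32.6 to 33.4) and 18.7% (17.4 to 20.1) on day 3, for replicates 1 and 2. In the YY1 line it was 32.3% (32.1 to 32.5) and 31.9% (31.4 to 32.3) on day 0, and 25.9% (25.4 to 26.5) and 17.98% (16.6 to 19.4) on day 3. The mean over 8 libraries was 27.9% ± 6.54 (SD). Both shallow day 3 libraries were the lowest, and the intervals of the replicates overlapped in YY1 day 0 but in none of the other 3 groups.

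**Figure D1:**
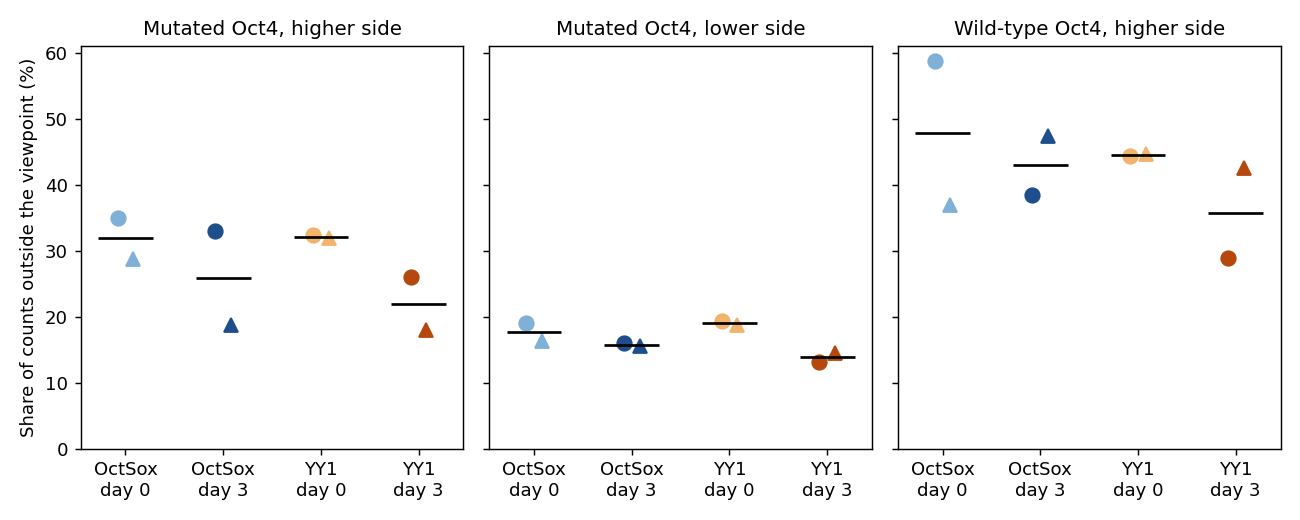
Share of counts outside the viewpoint (%) by line and day. Panels show the higher and the lower side of the mutated Oct4 viewpoint, from 12.6 kb to 2 Mb. The third shows the higher side of the wild-type Oct4 viewpoint within 2 Mb. Circles are replicate 1, triangles replicate 2 and bars group means. The mutated viewpoint's higher side lies between 17.98% and 35.01%, above its lower side at the same distances (13.1% to 19.3%) in each library.

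Contact was concentrated near the viewpoint. The nearest band, 11 fragments within 0.1 Mb, took 8.17% ± 2.58 (SD, n = 8) of counts, and the 40 fragments at 0.1 to 0.3 Mb took 8.61% ± 2.33. Depending on the library, 50% of member counts lay within 108 to 294 kb of the viewpoint, with a mean of 221 ± 63.0 kb. Per fragment the share fell from 0.742% ± 0.234 in the nearest band to 0.0552% ± 0.0250 at 0.3 to 0.6 Mb and 0.0207% ± 0.0106 at 0.9 to 1.2 Mb. It was 0.0259% ± 0.00832 at 1.2 to 1.5 Mb, the one band with a higher mean than the band before it, and 0.0106% ± 0.00405 at 1.5 to 1.8 Mb. Across the 457 fragments the mean share correlated with distance at Spearman's rho of -0.46 and with fragment length at 0.07; both are descriptions across fragments that share the same libraries.

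The 10 most contacted fragments all lay within 294 kb and together took between 31.7% and 57% of a library's member counts. The highest, 94850687 to 94856332, lay 24.5 kb from the viewpoint and took 2.74% ± 1.10 of counts (SD, n = 8). Its counts for replicates 1 and 2 were 1389 and 103 on day 0 and 2480 and 57 on day 3 in the OctSox line, and 4765 and 869 on day 0 and 634 and 120 on day 3 in the YY1 line. It was present in every library, and in the shallowest it made up 23.7% of all member counts. Its neighbour on the viewpoint's side, 94842901 to 94850680, took 2.15% ± 0.788. The next were 94934604 to 94939913 with 1.39% ± 0.588 and 94901753 to 94923772 with 1.28% ± 0.641. The other 6 lay between 72.5 and 294 kb and took 0.492% to 0.932% each.

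Detection followed depth. A library held a count on 60 to 415 of the 457 members, and after every library was thinned to 2820 counts the expected number was 60 to 221. The shallow day 3 libraries were still the lowest then, at 60 (YY1) and 83.6 (OctSox), against 148 to 221 in the others. Why they were lower was not tested. The thinning matched counts outside the viewpoint, not counts on the members, of which the shallowest library has the lowest share. All 8 libraries had a count on 28 members (6.13%), and 34 members had none in any library. The members without a count were 199 to 15272 bases long with a median of 3646, and those found in all libraries had a median of 5245. At the rule's edges the numbers were small. The nearest member, 94838823 to 94842894, held 0 to 98 counts against 4 to 579 on the fragment just outside, and the farthest, 96813126 to 96827631, held 0 to 3 against 0 to 8 just beyond.

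From 12.6 kb on, where the interval begins, the higher side was contacted more than the lower side of the same viewpoint. Per fragment, the interval's counts were 1.78-fold those of the 490 fragments at the same distances on the lower side (log2 ratio 0.83 ± 0.29, SD), above 0 in 8 of 8 libraries (exact sign-flip permutation p = 0.0078, two-sided; adjusted p = 0.0176 over the interval and its 8 bands). As shares at these distances, the sides took 27.9% and 16.6% of counts. Lower-side fragments nearer than 12.6 kb are not in that comparison. With them, the interval took 57.9% to 63.5% of the counts within 2 Mb on both sides in the deeper libraries. In the shallow day 3 libraries it took 44.8% (OctSox) and 41.8% (YY1), so there the lower side held more. The imbalance was not even along the interval. It was 2.11-fold at 0.1 to 0.3 Mb (log2 1.08 ± 0.40), but at 0.3 to 0.6 Mb the mean went the other way (log2 -0.50 ± 0.79) with 3 of 8 libraries above 0, and that band did not pass (exact permutation adjusted p = 0.102).

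The mean excess on the higher side reached its highest values beyond 1.2 Mb. It was 2.06-fold at 0.9 to 1.2 Mb, 5.46-fold at 1.2 to 1.5 Mb (log2 2.45 ± 0.56), 3.66-fold at 1.5 to 1.8 Mb and 8.51-fold at 1.8 to 2 Mb (log2 3.09 ± 1.01). The bands at 1.2 to 1.5 and 1.8 to 2 Mb were above 0 in 8 of 8 libraries (exact permutation adjusted p = 0.0176 each), and the other 2 in 7 of 8 (0.0201 each). The lower side's counts there were few, 0.333% ± 0.130 of counts at 1.2 to 1.5 Mb and 0.0828% ± 0.0613 at 1.8 to 2 Mb, with 1 library at 0, so that 0.5 was added to each count before the ratio. The nearest band and the band at 0.6 to 0.9 Mb differed less, 1.32-fold (adjusted p = 0.0352) and 1.28-fold (exact permutation adjusted p = 0.0201), each above 0 in 7 of 8 libraries. The nearest band no longer passed on leaving out any one library except OctSox day 3 replicate 2 (log2 0.36 to 0.44, exact permutation adjusted p 0.0527 to 0.0703). The band at 0.6 to 0.9 Mb no longer passed without the 2 shallow day 3 libraries (adjusted p = 0.0703) or as counts per kb (log2 0.16, exact permutation adjusted p = 0.0967).

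Counting fragments with a count, in place of counts, gave smaller ratios between the sides with the same calls. The log2 ratio was then 0.42 at 0.1 to 0.3 Mb, 1.43 at 1.2 to 1.5 Mb, 1.44 at 1.5 to 1.8 Mb and 1.55 at 1.8 to 2 Mb. As counts per kb it was 1.40 at 1.5 to 1.8 Mb and 2.31 at 1.8 to 2 Mb.

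**Figure D2:**
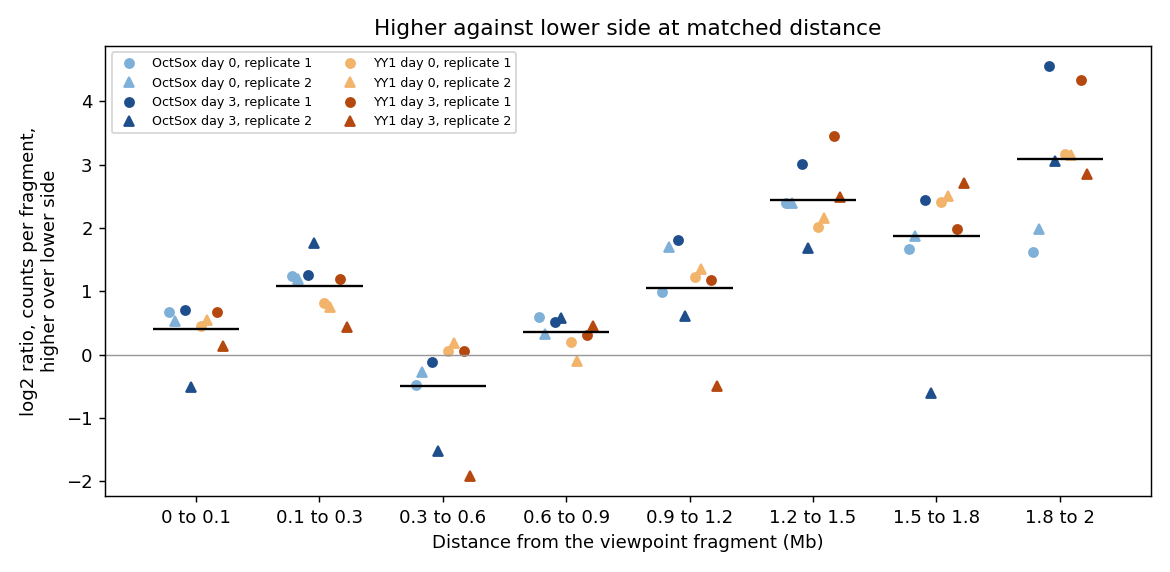
Log2 ratio of counts per fragment on the higher over the lower side of the mutated Oct4 viewpoint, in 8 bands of distance from the viewpoint fragment (Mb). The nearest band begins at 12.6 kb on both sides. Circles are replicate 1 and triangles replicate 2 of each line and day, black bars are means over 8 libraries; the bands at 1.2 to 1.5 and 1.8 to 2 Mb lie above 0 in all 8 libraries, and at 0.3 to 0.6 Mb the mean is below 0.

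Against the wild-type Oct4 viewpoint on chromosome 17, the mutated viewpoint had a smaller share nearby and a larger one at several longer distances. The 446 fragments within 2 Mb on the higher side of the wild-type viewpoint took 42.7% ± 8.67 of counts (SD, n = 8), 14.8 percentage points more than the interval (exact permutation within line and day p = 0.00154, the smallest the design allows, adjusted p = 0.00278). Within 0.1 Mb alone the mutated viewpoint was lower by 15.2 points, where 24 wild-type fragments took 23.4% and 11 members took 8.17%. That band begins past each viewpoint's own left-out neighbour, at 12.6 kb for the mutated one. Its start was not matched between the viewpoints. The bands from 0.6 to 1.5 Mb went the other way. At 0.6 to 0.9 Mb the mutated viewpoint was higher by 1.35 points, at 0.9 to 1.2 Mb by 1.18 points, and at 1.2 to 1.5 Mb by 1.48 points (1.84% against 0.354%), with exact permutation adjusted p-values of 0.00278, 0.00926 and 0.00278. At 1.5 to 1.8 Mb the 2 viewpoints took 0.675% and 0.793%, which did not pass (exact permutation adjusted p = 0.409). The total depends on what is divided by: with all counts of the library, viewpoint included, the difference was -1.14 points (exact permutation adjusted p = 0.819), and the shares of fragments with a count gave +3.03 points (0.0917). The viewpoints lie on different chromosomes with different fragments, and viewpoint and chromosome cannot be told apart.

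Within the interval, the region that holds the HoxB cluster stood above its surroundings. The 71 fragments at 1.2 to 1.5 Mb had 1.94-fold the counts per fragment of the geometric mean of the bands at 0.9 to 1.2 and 1.5 to 1.8 Mb (log2 0.96 ± 0.77, SD), above 0 in 7 of 8 libraries (exact sign-flip permutation p = 0.0156, adjusted p = 0.0469 over 3 HoxB tests). The call was lost on leaving out any one library except the YY1 day 0 replicate 1, with exact permutation adjusted p-values of 0.0833 to 0.0938 and ratios of 0.77 to 1.08. Without both shallow day 3 libraries the log2 ratio was 0.62 (adjusted p = 0.167, exact permutation). So few libraries cannot give an adjusted p under 0.05 over the 3 HoxB tests, so the threshold decides nothing there. Over all 13 alternatives, in counting, density, reference or libraries, the log2 ratio ran from 0.35 to 2.45. The exact permutation adjusted p ran from 0.0234 to 0.167, and the highest ratio took the lower side as reference. Because the nearer flank is closer to the viewpoint, and contact falls with distance, the band was also set against each flank. At 0.9 to 1.2 Mb the share per fragment was higher than in the band in OctSox day 0 replicate 2 and both YY1 day 0 libraries, and lower in the other 5. The farther flank was lower than the band in all 8 libraries.

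In both lines the HoxB region stood further above its flanks on day 3 than on day 0. In the OctSox line the log2 ratio was 0.87 and 0.48 on day 0 and 1.17 and 2.27 on day 3, for replicates 1 and 2. In the YY1 line it was -0.0049 and 0.11 on day 0 and 1.08 and 1.68 on day 3. In both lines the 2 day 3 libraries lay above the 2 day 0 libraries, without overlap. The means were 0.36 ± 0.40 on day 0 and 1.55 ± 0.55 on day 3 (SD, n = 4 each), a difference of 1.19, with an exact permutation p of 0.0556, the smallest that 36 arrangements of the day labels allow, and an adjusted p of 0.0833, so this permutation test cannot fall under 0.05. Without both shallow day 3 libraries the difference was 0.76 (exact permutation adjusted p = 0.167), and as fragments with a count 0.22 (0.5). The lines differed by -0.48 (YY1 minus OctSox, exact permutation adjusted p = 0.222), and the line permutation cannot fall under 0.05 either.

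**Figure D3:**
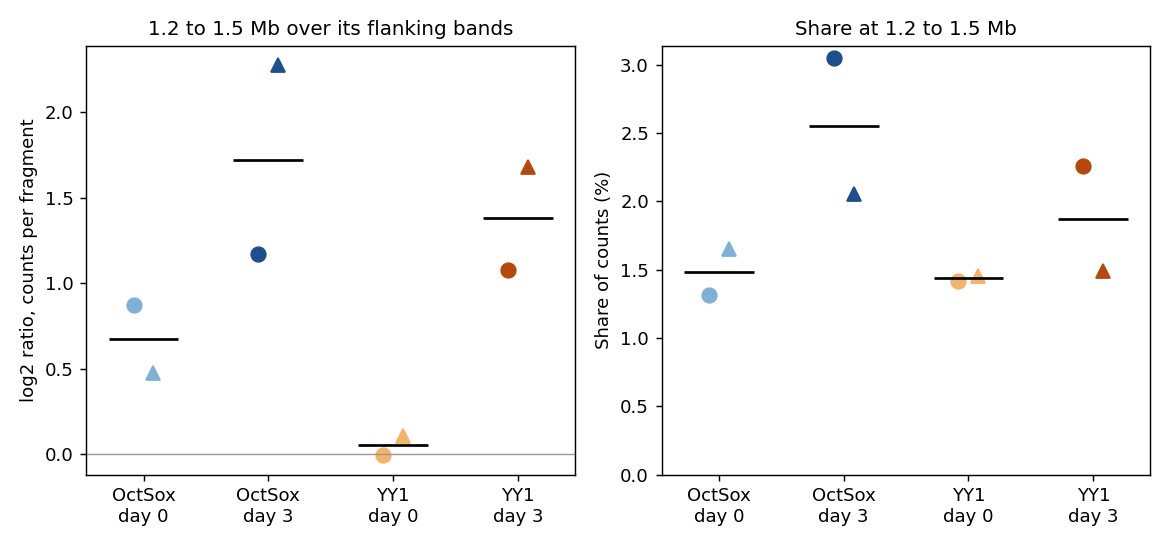
The fragments at 1.2 to 1.5 Mb, which hold the HoxB cluster, by line and day. Left, log2 ratio of their counts per fragment to the flanking bands; right, their share of counts outside the viewpoint (%). Circles are replicate 1, triangles replicate 2, bars group means; in both panels every day 3 library lies above every day 0 library of its line.

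The share of counts in the HoxB region gave the same order of days. It was 1.31% and 1.65% on day 0 and 3.05% and 2.05% on day 3 in the OctSox line, and 1.42% and 1.45% on day 0 and 2.26% and 1.49% on day 3 in the YY1 line. The last of these rests on 42 counts (95% Wilson interval 1.10 to 2.01), which holds both YY1 day 0 values, so in that library the higher share was not detectable at its depth. The mean difference was 0.75 points (exact permutation p = 0.0556, adjusted p = 0.25 over the interval and its bands). With all libraries kept, it was the one band of the 8 whose mean was higher on day 3. The interval as a whole was lower by 8.08 points (exact permutation adjusted p = 0.25). The band at 0.1 to 0.3 Mb was lower by 3.47 points (0.25) and that at 0.3 to 0.6 Mb by 2.73 points (0.25). Without the shallow libraries the interval's mean difference was -2.51 points (exact permutation adjusted p = 0.714) and that of the HoxB region 1.19 points (0.714). In that setting the HoxB region was no longer the only band higher on day 3. The nearest band, the farthest band and the bands on either side of the region were then higher as well.

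The flanks also had different values on the 2 days. Per fragment, the band at 0.9 to 1.2 Mb held 0.0127% to 0.0335% on day 0 and 0.00276% to 0.0281% on day 3, and its lowest value, in YY1 day 3 replicate 2, came from 6 counts. In OctSox day 3 replicate 2, which had the highest ratio to the flanks, the near flank held 28 counts and the far flank 6. On the lower side at 1.2 to 1.5 Mb the share was 0.304% ± 0.0434 on day 0 and 0.361% ± 0.189 on day 3 (SD, n = 4). Set against that lower side instead of the flanks, the HoxB region's log2 ratio was 2.24 ± 0.19 on day 0 and 2.66 ± 0.77 on day 3, a difference of 0.42 (exact permutation adjusted p = 0.667). For the wild-type viewpoint, the share at this distance was 0.418% ± 0.140 on day 0 and 0.289% ± 0.0618 on day 3.

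Counts in the HoxB region were spread over many fragments in the deeper libraries. In the 6 libraries with over 100 counts there, 24 to 61 of the 71 fragments had a count and the highest one held 5.42% to 26.2% of the region. The 2 shallow day 3 libraries had counts on 13 and 5 fragments, and the highest held 28.8% and 42.9%. No fragment of the region was found in all 8 libraries, and 9 were found in none. Without the highest fragment of each band the day difference was 1.28.

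The 3 most contacted fragments of the region varied strongly between replicates. The highest, 96039345 to 96042983, at 1213 kb, took 0.205% ± 0.219 of counts (SD, n = 8). Its counts for replicates 1 and 2 were 0 and 6 on day 0 and 87 and 14 on day 3 in the OctSox line, and 188 and 26 on day 0 and 51 and 18 on day 3 in the YY1 line. The fragment 96165561 to 96174456, at 1339 kb, took 0.149% ± 0.200, with 25 and 1 counts on day 0 and 188 and 19 on day 3 in the OctSox line and 111 and 39 on day 0 and 22 and 0 on day 3 in the YY1 line. The fragment 96038849 to 96039338 took 0.142% ± 0.145 and adjoins the highest one. Each had a library at 0 or near it, and their SDs were about as large as their means.

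Split into 12 steps of 25 kb, the region had 2 high stretches. Those were the 9 fragments at 1200 to 1225 kb, with 0.359% ± 0.273 on day 0 and 0.705% ± 0.264 on day 3 (SD, n = 4), and the 8 fragments at 1325 to 1350 kb, with 0.253% ± 0.0643 and 0.557% ± 0.179. The mean was higher on day 3 in 9 of the 12 steps and lower at 1225 to 1250, 1450 to 1475 and 1475 to 1500 kb. These steps were laid out after the values of the region had been seen, and the shallow libraries are at 0 in several of them, so no test was made.

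Windows of 100 kb laid along the interval showed where the day 3 libraries departed from day 0. Of the 20 windows, 2 had both day 3 libraries above both day 0 libraries in both lines, against 19 of 1192 windows over the whole chromosome (1.59%). They adjoin each other, from 96038849 to 96140026 and from 96140033 to 96240370, at 1213 to 1414 kb, within the HoxB region. In the first, the share per fragment was 0.0175% and 0.0385% on day 0 and 0.0507% and 0.0448% on day 3 in the OctSox line, and 0.0242% and 0.0272% on day 0 and 0.0339% and 0.0284% on day 3 in the YY1 line. Ranked among the 20 windows, it went from 9th to 13th on day 0 to 4th to 9th on day 3, and the second from 9th to 17th to 4th to 7th. The windows on either side did not separate the days in this way. In the YY1 line both of those had the day 3 libraries below the day 0 libraries, and in the OctSox line the days overlapped. Of the 1192 windows, 698 had enough counts for the edgeR test over both lines, and all 20 members did. The background thus includes sparse windows and is not at a like depth.

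The opposite pattern, where both lines showed it, was nearer the viewpoint. In 5 of the 20 windows both day 3 libraries lay below both day 0 libraries in both lines, against 2.68% of the chromosome's windows. That background includes the same sparse windows, as do the shares for single lines below. The 5 windows lay at 114 to 416 kb and at 516 to 715 kb. In the window at 114 to 222 kb the share was 6.19% and 3.93% on day 0 and 3.62% and 2.74% on day 3 in the OctSox line, and 4.32% and 4.00% on day 0 and 3.19% and 1.70% on day 3 in the YY1 line. Within a line the counts were 2 higher and 5 lower in the OctSox line, against 10.8% and 11.7% of all windows, and 2 higher and 13 lower in the YY1 line, against 13.4% and 19.9%. The lower windows of the YY1 line were not only near the viewpoint and reached 1915 kb. The shape of the profile was otherwise alike: over the 20 windows, the 28 pairs of libraries had Spearman correlations of 0.45 to 0.95 with a median of 0.83, given as a description of libraries that share the same distances.

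**Figure D4:**
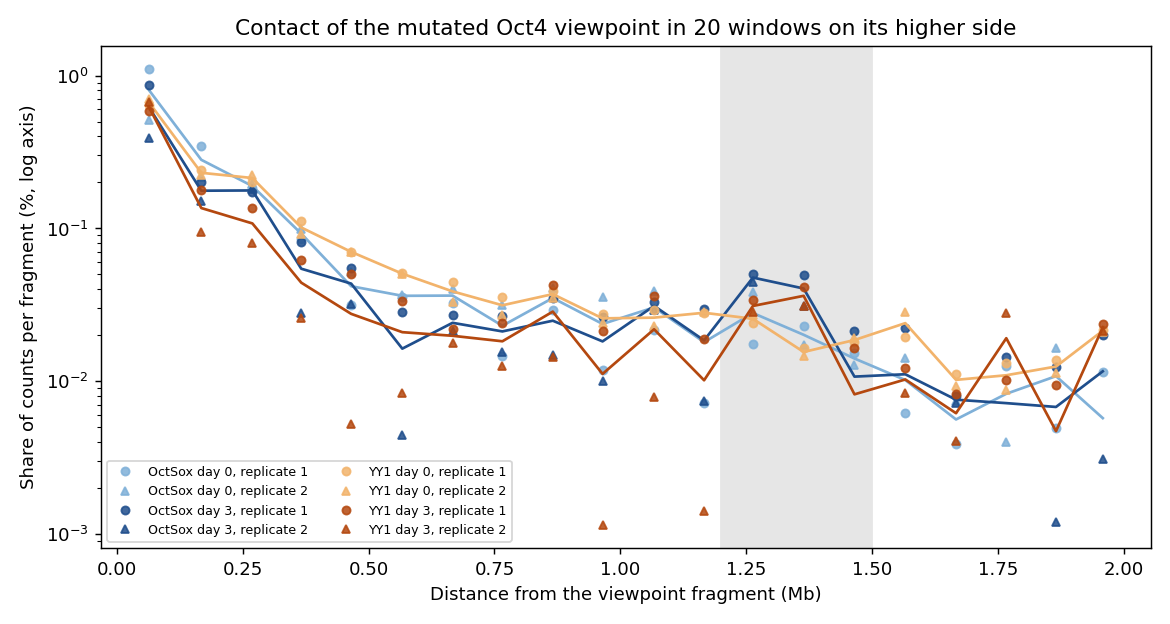
Share of counts per fragment (%, log axis) in the 20 windows of 100 kb, against their mid distance from the viewpoint fragment (Mb). Points are libraries (circles replicate 1, triangles replicate 2), lines are means of a line and day, and the grey band marks 1.2 to 1.5 Mb; 6 of the 160 values are 0 and are not drawn. In the windows at 1213 to 1414 kb both day 3 libraries of each line lie above its day 0 libraries.

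In edgeR's quasi-likelihood test across chromosome 11, with Benjamini-Hochberg adjustment at 0.05, no member passed in any comparison. For single fragments, where most members were too low to test, day 3 against day 0 called 0 of 106 members tested in the OctSox line (1.43% of all fragments tested were called), 0 of 184 in the YY1 line (0.467%) and 0 of 221 over both lines (0%). The lines differed at 0 of 221 members (0.455% of all), and the day effect differed between lines at 0 of 221 (0%). At an unadjusted edgeR p under 0.05 the members were 1 (4.29% of all fragments tested), 9 (7.48%), 1 (3.03%), 2 (6.37%) and 4 (5.46%) in the same order, and with DESeq2 none passed after adjustment. Members entered the test by their level, so their counts do not stand for all 457.

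For windows, all 20 members could be tested. Day 3 against day 0 called 0 of 20 in the OctSox line (0.282% of all windows called), in the YY1 line (0.364%) and over both lines (0.716%), and the line comparison and the interaction called 0 of 20 as well (0.287% and 0.143%). At an unadjusted edgeR p under 0.05 there were 4 windows in the YY1 day comparison (7.47% of all windows) and 0 in the OctSox line (1.41%), over both lines (3.01%), between lines (4.01%) and for the interaction (4.01%), and DESeq2 called none after adjustment. The median log2 change over both lines was -0.71 for the 20 windows and -0.28 for all 698 tested, with 3 of 20 above 0. In the YY1 line it was -1.10 against -0.35 for all 549 windows, and in the OctSox line -0.30 against -0.24 for all 354.

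The windows with the smallest p in the day comparisons had negative changes near the viewpoint. In the YY1 line, the window at 222 to 317 kb had a change of -1.30 ± 0.45 (log2, SE; edgeR adjusted p = 0.413) and that at 317 to 416 kb one of -1.46 ± 0.55 (0.446). Over both lines the window at 114 to 222 kb had a change of -1.08 ± 0.58 (edgeR adjusted p = 0.999). For the 2 HoxB windows the fit over both lines gave 0.18 ± 0.80 and 0.75 ± 0.81 (edgeR adjusted p = 0.999 each), both smaller than their SE. In the YY1 line the first of them had -0.07 ± 0.70 with TMM scaling, and its sign turned to 0.29 with scaling by total count, so its direction depends on the scaling.

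Among single fragments, those with the smallest p were also not past the threshold. In the OctSox line the fragment 95552039 to 95554135, at 726 kb, had counts of 1 and 0 on day 0 and 33 and 2 on day 3 (edgeR adjusted p = 0.12). In the YY1 line the most contacted member, 94850687 to 94856332, had a change of 0.56 ± 0.22 on the log2 scale (edgeR adjusted p = 0.449). The fragment 95696564 to 95697006, at 870 kb, had 132 and 29 counts on day 0 and 0 and 0 on day 3 in that line, where 0 of 26425 and 0 of 2820 counts allow up to 0.0114% and 0.106% (edgeR adjusted p = 0.449). Over both lines 96183147 to 96188589, at 1357 kb in the HoxB region, had 0 and 0 on day 0 and 41 and 0 on day 3 in the OctSox line, and 46 and 0 on day 0 and 6 and 6 on day 3 in the YY1 line (edgeR adjusted p = 0.992). Apart from the most contacted member, most counts of these fragments in the comparison came from 1 or 2 libraries.

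The lines were not separated in this interval. The OctSox line took 28.9% ± 7.27 of counts in the interval and the YY1 line 27.0% ± 6.69 (SD, n = 4 each), a difference of -1.84 points (exact permutation adjusted p = 0.875). Band by band, the exact permutation adjusted p of the line difference was 0.875 or 0.889. At 1.2 to 1.5 Mb the lines took 2.02% ± 0.751 and 1.65% ± 0.402. With 2 libraries per line and day, differences smaller than this spread were not detectable, and a missed threshold does not show that the alleles contact the interval alike.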

How the data were processed

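HindIII 4C libraries of the mutated Oct4 viewpoint on chromosome 11 were analysed from the raw read counts per HindIII fragment that the authors deposited, with no normalization, and placed by the deposited list of fragment positions (mm9, other values in base pairs, 1-based). Reads were aligned with Bowtie, per the submitters' processing notes; the sources used here name neither its version nor the counting filters. Shares are percent of counts outside the viewpoint fragment and 1 neighbour on either side. Log2 ratios between sides or bands use counts plus 0.5, per fragment. Mean shares and ratios were compared by exact two-sided permutation within line or day, or by sign flips over 8 libraries, with Benjamini-Hochberg adjustment over the interval and its 8 bands, or over 3 HoxB tests. Fragments and 100 kb windows of the whole chromosome entered edgeR's quasi-likelihood test (version 4.0.16, R 4.3.3; TMM, filterByExpr with minimum count 10), with DESeq2 1.42.0 as an alternative; the scripts were tested on simulated data. The SE of a log2 change was derived from the change and its F statistic, so it is no separate measure of spread. Library depth outside the viewpoint was 2820 to 252528 counts.

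Named fragments are the 10 most contacted members, the 3 most contacted at 1.2 to 1.5 Mb and, as none passed, up to 3 with the smallest p per comparison, of which some are given. The members, bands and lists were chosen with earlier results of these data known. Alternatives were another denominator, density, scaling, filter, window size, test, replicate block and leaving out libraries; leaving out both day 3 libraries numbered 2 for the shares was added after seeing the data. The viewpoint position was inferred from the counts. Scripts ran under Python 3.11.15 with pandas 2.3.3, numpy 2.4.6, matplotlib 3.10.9 and scipy 1.17.1.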

Additional observations from a re-analysis of the deposited data

How the results depend on the processing

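Of 238 alternative values of the main results, 222 kept their direction and side of the threshold, 9 lost the threshold, 2 moved and 5 reversed; of 710 for bands and single features, 42 reversed, none of a called value, 9 lost the threshold (the side ratios at 0 to 0.1 and 0.6 to 0.9 Mb) and 4 gained it. The day and line permutation tests counted there allow no p below 0.0556. Their side of the threshold was thus fixed, and only their direction was free to change. The edgeR main results are counts of called members, which have no direction while at 0. Depth, the 2 shallow day 3 libraries and 2 libraries per group limit all day comparisons.

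Leaving out 1 library at a time gave log2 0.77 to 1.09 for the HoxB region against its flanks (exact permutation adjusted p 0.0469 to 0.0938), 0.91 to 1.46 for its day difference (0.76 without both shallow libraries, 0.22 as fragments with a count), -0.76 to -0.21 for its line difference and 0.78 to 0.89 for the interval against the lower side. It gave -11.7 to -4.50 points for the interval's day difference, -5.43 to 1.74 points for its line difference, which turned positive without OctSox day 3 replicate 1 (1.74) or YY1 day 3 replicate 2 (0.146), and -17.5 to -12.1 points against the wild-type viewpoint. Member fragments called in the YY1 day comparison were 0 to 33, and windows 0 to 16, the highest without YY1 day 3 replicate 1, where 32 fragments and 16 windows were lower on day 3; the lone library there is assumed to vary like the others.

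Without both shallow libraries the HoxB ratio was 0.62 (exact permutation adjusted p = 0.167, which so few libraries cannot bring under 0.05). In that setting 4 bands' day differences turned: 0.274, 0.0304, 0.0200 and 0.115 points at 0 to 0.1, 0.9 to 1.2, 1.5 to 1.8 and 1.8 to 2 Mb. Counting fragments with a count turned the interval's day difference to 0.499 points, its difference from the wild type to 3.03, and the bands at 0 to 0.1, 0.1 to 0.3, 1.5 to 1.8 and 1.8 to 2 Mb to 0.458, 0.616, 0.0424 and 0.0184. With counts within 2 Mb as the denominator, the first and seventh bands gave 0.835 and 0.0666; with all counts, the difference from the wild type was -1.14. Counts per kb turned the side ratio at 0.3 to 0.6 Mb to 0.10. Against the lower side the HoxB line difference was 0.16. Leaving out 1 library, the day difference ran from -2.80 to 0.816 points at 0 to 0.1 Mb (0.423 in between), from -0.228 to 0.0935 at 1.5 to 1.8 Mb (0.0061 in between) and from -0.256 to 0.0355 at 1.8 to 2 Mb.

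Among edgeR log2 changes, none past the threshold, the fragment from 94850687 in the YY1 day comparison turned to -0.62 without a filter and ran from -0.66 to 0.40 without 1 library (-0.40 in between). Window 13 (from 1213 kb) in the YY1 line turned to 0.099 with DESeq2, 0.29 with total scaling and 0.56 with counts within 2 Mb, and ran from -0.76 to 0.24 without 1 library; over both lines it ran from -0.35 to 0.51 (-0.11 in between). Window 14 (from 1314 kb) turned in the interaction to 0.088, 0.22, 0.29 and 0.16 (DESeq2, total scaling, counts within 2 Mb, viewpoint kept) and ran from -1.06 to 1.202 without 1 library. Without 1 library, the OctSox day change ran from -1.60 to 0.078 in window 2 and from -0.058 to 1.64 in window 14. The line difference ran from -0.65 to 0.24 in window 1, -0.80 to 0.012 in window 2, -0.62 to 0.032 in window 13 and -0.68 to 0.073 in window 14. The interaction ran from -3.28 to 7.65 in window 16, -5.83 to 0.55 in window 12 and -1.76 to 0.048 in window 13. The causes were not tested.

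Replicate numbers were not shown to pair the libraries: same-numbered deviations correlated at -0.09 (OctSox) and 0.0015 (YY1) over 698 windows. With the replicate block, 0 members passed in edgeR, the interval's day difference was -8.08 points and the HoxB day difference 1.19 (exact permutation adjusted p = 0.125, the smallest that this test allows). The line comparison was not run with the replicate block.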
